A study of Mus musculus with 10 samples.

Results

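The genes described here make, move and sense sterols and fatty acids. They are 37 genes, chosen by name as enzymes of cholesterol and fatty acid synthesis, proteins of sterol transport, storage and efflux, and the regulators SREBP and LXR, out of 32648 genes in the table. They fall into 6 roles: 7 enzymes of the mevalonate pathway, 11 enzymes that carry squalene to cholesterol, 5 regulators of SREBP, 4 genes of sterol transport and storage, 4 of LXR and efflux, and 6 of fatty acid synthesis. All 37 passed the filter on low counts that kept 18825 genes, and no member was left out of any test.

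They were measured by RNA-seq in renin cells, the hormone-secreting cells of the wall of the arteriole that feeds the glomerulus. The cells came from adult Ren1c-YFP mice on the C57BL/6 background, aged 8 to 12 weeks, in which the Ren1c promoter drives the yellow fluorescent protein used for sorting. The mice were either operated on to narrow the aorta at a level between the origins of the renal arteries (coarctation) or had a sham operation that left the aorta unexposed. At 72 h after surgery the cortex of each kidney was digested and 1000 living fluorescent cells were sorted from it. The groups were right kidneys of coarctation mice and left kidneys of coarctation mice (n = 3 mice) and right and left kidneys of sham mice (n = 2 mice), which makes 10 libraries. All mice of all groups carried the reporter, the kidneys of a mouse are paired by its number, and the labels give no pressures. Because Ren1c also drives the reporter, the sort selected for activity of that promoter. A lower value in a library can come from fewer cells of a type or from less RNA per cell, which cannot be told apart in bulk RNA.

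Cells make cholesterol from acetyl-CoA through mevalonate, isoprenoids, squalene and lanosterol. When sterol in the endoplasmic reticulum is low, SCAP carries the SREBP transcription factors to the Golgi, where they are cut and released to the nucleus, and there they raise transcription of the genes of this route. When sterol is high, INSIG proteins hold SCAP back, and oxysterols activate the LXR receptors, whose targets ABCA1 and ABCG1 export cholesterol. In muscle cells of the vessel wall, from the lineage that renin cells share, uptake and efflux of sterol are best known from work on atherosclerosis.

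Depth was 20029817 to 32006229 estimated counts per library. Ren1, the renin gene, had 5451, 11982 and 10836 TPM (a level relative to all transcripts of the library, corrected for transcript length) in right kidneys and 29285, 48620 and 36877 TPM in left kidneys of coarctation mice 1, 2 and 3, with no overlap. It had 21776 and 48591 TPM in right kidneys and 30521 and 43896 TPM in left kidneys of sham mice 1 and 2. For coarctation right minus left its log2 change was -2.20 (SE 0.36, adjusted p = 0.165 by edgeR's quasi-likelihood test), and that of the EYFP reporter was -2.28 (SE 0.67). All 7 listed renin cell markers had at least 1 TPM in every library. On the first principal component of log2 CPM, the pair from sham mouse 1 lay far from the rest, with scores of 127.7 for the right and 107.3 for the left kidney, against -74.4 to 1.12 in the other 8 libraries. Medians without that mouse are given beside each comparison with sham kidneys.

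All 37 genes had a TPM above 0 in every library, and their levels differed widely. Over the 10 libraries, the highest mean levels were those of Pmvk, phosphomevalonate kinase, at 101 TPM, Fdps, farnesyl diphosphate synthase, at 51.2 TPM, Npc2, a lysosomal sterol carrier, at 47.1 TPM, and Insig2, which retains SCAP, at 37.2 TPM. The lowest were Abcg1 at 0.416 TPM, Abca1 at 0.633 TPM and Hsd17b7, a sterol ketoreductase, at 0.947 TPM. Summed over roles, the 7 mevalonate genes had 192 ± 34.8 TPM in right and 209 ± 30.3 TPM in left kidneys of coarctation mice (SD, n = 3 each), and 217 ± 78.7 and 222 ± 71.7 TPM in right and left sham kidneys (n = 2 each). The 6 genes of fatty acid synthesis summed to 16.4 ± 6.76 TPM in right and 22.2 ± 5.06 TPM in left coarctation kidneys, and to 19.9 ± 1.88 and 23.3 ± 3.29 TPM in right and left sham kidneys. The group means of both sums differed by less than the SD of at least 1 of the groups compared, apart from right against left in sham kidneys for fatty acid synthesis, where the SDs rest on 2 mice.

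**Figure D1:**
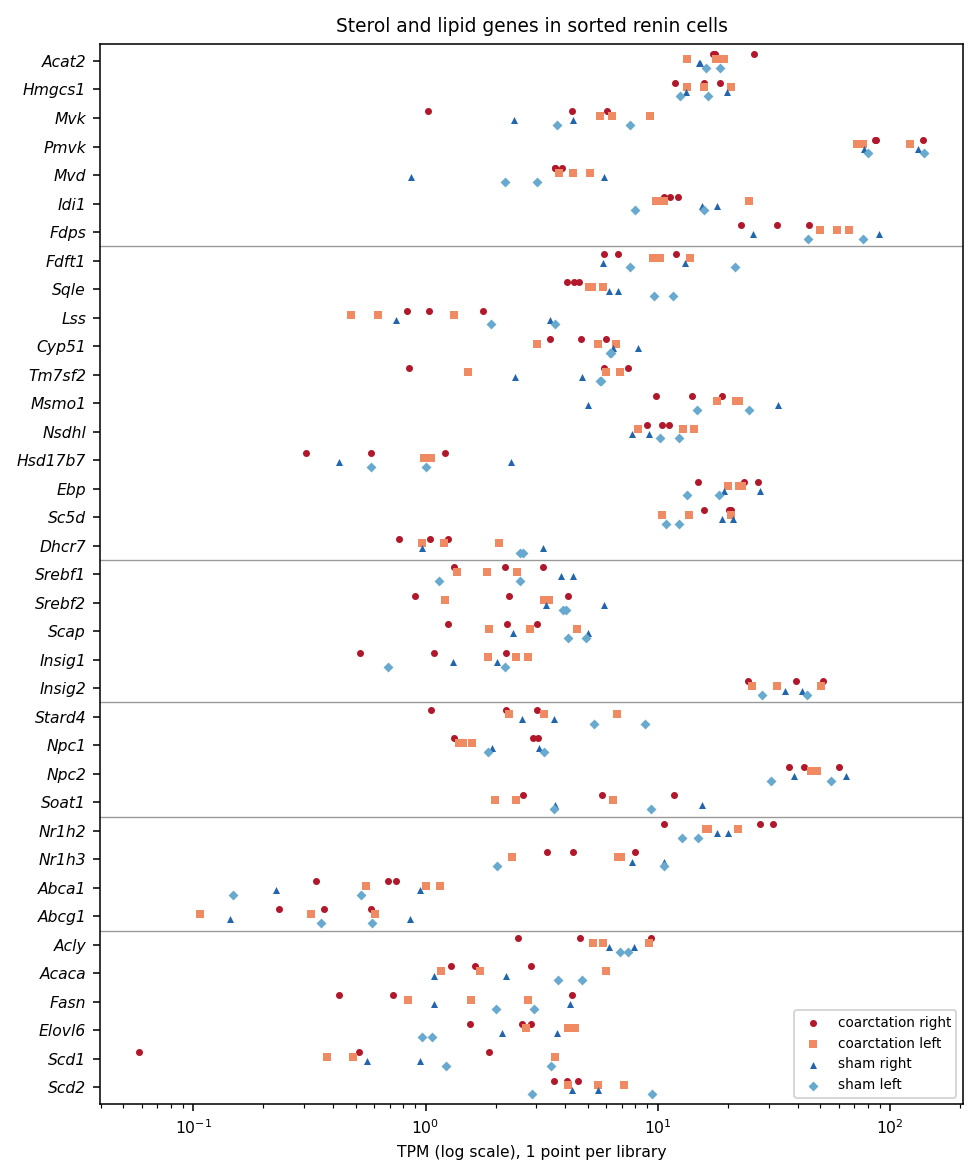
TPM of the 37 genes in each library, on a log axis, with the right and left coarctation kidneys above the right and left sham kidneys in each row, and lines between the 6 roles. Levels run from 0.0584 TPM for Scd1 in 1 right coarctation kidney to 140 TPM for Pmvk in 1 left sham kidney, and libraries of different groups overlap in most rows.

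The main test was edgeR's quasi-likelihood test over all 18825 genes, with Benjamini-Hochberg adjustment. It called 0 of the 37 genes in each of the 5 comparisons, and it called no other gene either, so that 0% of genes were called in each. DESeq2 called 1 of the 37 (2.7%) in left kidneys, Elovl6, where it called 39 of all genes (0.207%), and 0 of the 37 in the other comparisons. Of all genes it called 0.404% for coarctation right minus left, 0.149% for sham right minus left, 0.181% for the difference and 0.303% in right kidneys. Without the filter on low counts edgeR called 0 of the 37 and, in the same order with left before right kidneys, 0.357%, 0.0606%, 0.201%, 0.214% and 0.223% of 31370 genes. Mouse as a fixed block called 0 of the 37 and, for coarctation right minus left, 5 of all genes (0.0266%), and mouse as a random block 0 of the 37 and 6 of all genes there (0.0319%). Both blocks called 0 genes in the other comparisons each could fit, and limma-voom called 0 genes in all 5. A p that misses the threshold does not show that levels were equal. The genes are therefore described by their values in each kidney, the size of each change with its SE, and the share of them on each side of 0 beside the same share of all genes.

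Coarctation right minus left is the comparison of kidneys within the operated mice. Of the 37 genes, 28 had a negative log2 change (lower on the right) and 9 a positive one, 75.7% negative against 48.3% of all genes tested. Their median log2 change was -0.35, against 0.02 for all genes. At an unadjusted p under 0.05, 1 of the 37 (2.7%) was lower and none higher, while 4.63% of all genes passed that level in either direction. By role, negative changes were found for 5 of the 7 mevalonate genes, 9 of the 11 genes from squalene to cholesterol, 4 of the 5 SREBP regulators, 2 of the 4 genes of transport and storage, 2 of the 4 of LXR and efflux, and 6 of the 6 of fatty acid synthesis. The role medians were -0.40, -0.35, -0.31, 0.16, -0.11 and -0.70 in that order. With mouse as a block the median over the 37 genes was -0.40.

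The kidneys of each mouse can also be compared directly. Within a mouse, the difference in log2 CPM (counts scaled to the size of the library) between right and left kidneys had a median over the 37 genes of -0.42, -0.17 and -0.57 in coarctation mice 1, 2 and 3, and of 0.12 and -0.08 in sham mice 1 and 2. The right kidney was lower for 26, 23 and 28 of the 37 genes in the coarctation mice, and for 18 and 19 in the sham mice. Lower on the right in all 3 coarctation mice were 12 genes (32.4%), against 13.5% of all genes. They were Hmgcs1, Mvd, Fdps, Fdft1, Sqle, Msmo1, Dhcr7, Insig1, Acly, Elovl6, Scd1 and Scd2. Insig1 is a regulator and not an enzyme of synthesis, and Scd1 and Scd2 differed by only -0.06 and -0.02 in mouse 2. Other enzymes of the same routes, among them Acat2, Lss, Cyp51, Acaca and Fasn, differed in direction between the coarctation mice. Higher on the right in all 3 was 1 gene, Pmvk (2.7%, against 14.5% of all genes). In both sham mice 11 genes were lower (29.7%, against 24.3%) and 11 higher (29.7%, against 24.5%). The count of 12 was 7 on the log2(TPM + 1) scale, and 7 when reads were rebuilt with the transcript lengths of each library, with 8.15% and 9.12% of all genes lower on those scales. The count of higher genes was 2 on log2(TPM + 1) and 4 with rebuilt reads, with 20.8% and 19.2% of all genes higher. Fdps, Fdft1, Sqle, Msmo1 and Dhcr7 were among the genes lower in all 3 mice on all of these scales. Of the 12 genes, Fdft1, Sqle and Scd1 were also lower on the right in both sham mice in log2 CPM.

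**Figure D2:**
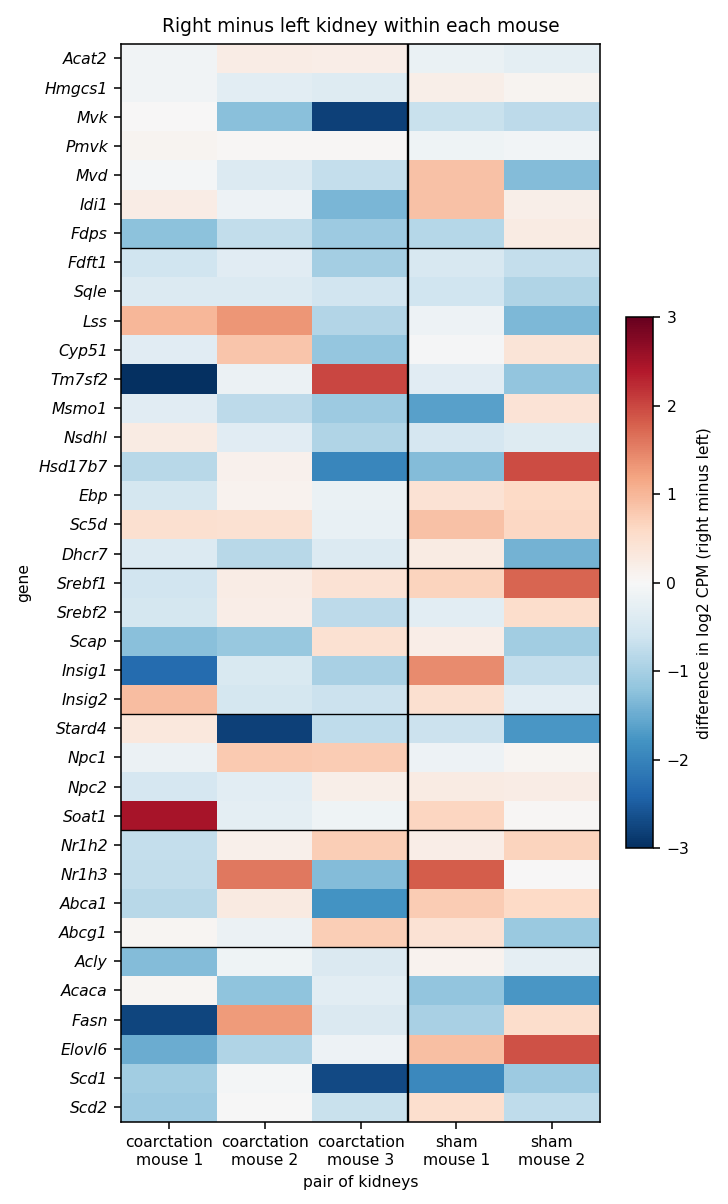
Difference in log2 CPM between the right and the left kidney of each mouse (columns) for the 37 genes (rows, lines between the 6 roles); blue is lower and red higher on the right, and differences past 3 in either direction are drawn in the end colours. The coarctation columns hold blue for 26, 23 and 28 genes, and the sham columns for 18 and 19.

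Markers of other cell types also differed between the kidneys of coarctation mice. The 12 markers of the distal nephron summed to 1015, 194 and 225 TPM in right and 283, 93.3 and 94.4 TPM in left kidneys of coarctation mice 1, 2 and 3, against 310 and 117 TPM in right and 444 and 235 TPM in left sham kidneys. The sums were higher on the right in all 3 coarctation mice and lower on the right in both sham mice. Of single markers, Slc12a3, Calb1, Atp6v1g3, Atp6v1b1, Slc26a4 and Slc4a1 were higher on the right in all 3 coarctation mice in log2 CPM. Slc12a1 was lower in all 3, and Umod, Aqp2, Aqp3, Scnn1b and Scnn1g were mixed. Slc12a3, Calb1 and Slc4a1 were also higher on the right in both sham mice. The 4 endothelial markers summed to 102, 85.4 and 98.8 TPM in right and 71.0, 83.9 and 58.9 TPM in left coarctation kidneys, without overlap, and to 69.1 and 90.4 TPM in right and 78.4 and 95.4 TPM in left sham kidneys. In each coarctation library 1 or 2 of these 4 had at least 1 TPM. In log2 CPM, Tek was higher on the right in all 3 coarctation mice and Pecam1 was lower in all 3. Cdh5 was higher in mouse 1 and lower in mice 2 and 3. Emcn was higher in mice 1 and 3 and lower in mouse 2. The 4 podocyte markers summed to less on the right in each coarctation mouse, with 20.3, 23.3 and 17.6 TPM in right and 43.4, 27.9 and 21.3 TPM in left coarctation kidneys, and 40.6 and 35.4 TPM in right and 28.9 and 43.1 TPM in left sham kidneys. The 7 renin cell markers, Ren1 among them, summed to 18970 to 35750 TPM in right and 46830 to 79140 TPM in left coarctation kidneys. In log2 CPM, Ren1, Akr1b7, Gja5 and Crip1 were lower on the right in all 3 coarctation mice. Acta2 was higher there in all 3 (0.06, 0.74 and 0.14), and also in both sham mice (0.19 and 0.33). Myh11 and Rgs5 were higher on the right in coarctation mice 1 and 2 and lower in mouse 3. The part of these cell types in the lower values of the 12 lipid genes was not tested.

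Enzymes of the mevalonate pathway came first in the route. Fdps, which makes farnesyl diphosphate, had the smallest p of the 37 genes in coarctation right minus left. It had 22.8, 44.5 and 32.6 TPM in right kidneys and 49.9, 66.5 and 59.2 TPM in left kidneys of coarctation mice 1, 2 and 3. It had 25.7 and 89.9 TPM in right kidneys and 44.2 and 76.6 TPM in left kidneys of sham mice 1 and 2. Every right coarctation kidney lay below every left one, and the sham kidneys, at 25.7 to 89.9 TPM, overlapped both. The log2 change for coarctation right minus left was -0.997 (SE 0.447, unadjusted p = 0.0444, adjusted p = 1.0), and with mouse as a block -1.02 (SE 0.27, unadjusted p = 0.00518, adjusted p = 0.606). In sham mice 1 and 2 the right kidney differed from the left by -0.86 and 0.24 in log2 CPM, and the fitted sham change was -0.06. That change was 0.63 without the right kidney of sham mouse 1 and -1.43 without that of sham mouse 2. The difference between the changes was -0.94 (SE 0.70, unadjusted p = 0.204), -1.63 without the right kidney of sham mouse 1, and 0.44, of the other sign, without that of sham mouse 2.

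Hmgcs1, the synthase that makes HMG-CoA, had the smallest ratio of highest to lowest TPM of the 37 genes, 1.74. It had 15.7, 11.8 and 18.5 TPM in right and 15.7, 13.3 and 20.5 TPM in left coarctation kidneys, against 19.8 and 13.2 TPM in right and 16.5 and 12.5 TPM in left sham kidneys. Within mice the right kidney differed from the left by -0.10, -0.32 and -0.38 on the log2 CPM scale in coarctation mice and by 0.18 and 0.08 in sham mice. These within-mouse differences were smaller than the range of its mouse means, 0.82. Idi1, isopentenyl diphosphate isomerase, had 12.3, 10.6 and 11.2 TPM in right and 9.85, 10.6 and 24.6 TPM in left coarctation kidneys. In sham mice it had 15.4 and 17.9 TPM in right and 7.95 and 15.8 TPM in left kidneys. The left kidney of coarctation mouse 3 alone was above all others, and the difference between the right minus left changes was -0.996 (SE 0.682, unadjusted p = 0.168).

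Acat2, the cytosolic thiolase that condenses acetyl-CoA, had 17.6, 17.3 and 25.9 TPM in right coarctation kidneys, against 15.0 and 15.1 TPM in right sham kidneys. In left kidneys it had 17.7, 13.3 and 19.3 TPM with coarctation and 16.1 and 18.5 TPM with sham. Coarctation minus sham in right kidneys was 0.57 for it (SE 0.38, unadjusted p = 0.156), without overlap. Pmvk was the gene with the smallest spread between kidneys of a mouse, with a median gap of 0.08 in log2 CPM, while its mouse means spanned 0.96. Mvk, mevalonate kinase, had 1.02 TPM in the right kidney of coarctation mouse 3 and 2.41 to 9.28 TPM elsewhere. Mvd, mevalonate diphosphate decarboxylase, ranged between 0.862 and 5.85 TPM, both ends of which were right sham kidneys.

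Promoters are shown for the 2 enzymes of sterol synthesis with the smallest p in coarctation right minus left that the RefSeq promoter table holds, Mvk and Idi1. Hmgcs1 and Elovl6 were added after their values were seen, Hmgcs1 because it alone held the sterol element searched and Elovl6 because on the deposited counts it has the largest changes in left kidneys and in the difference between the changes. Fdps, Fdft1 and Sqle are named only. Each sequence runs 5′ to 3′ on the gene's strand, from upstream of the RefSeq start into the first transcribed bases, in build GRCm38.p6, and all 4 lie on the plus strand, at chr5:114444019-114444318 for Mvk, chr13:8885356-8885655 for Idi1, chr13:119690101-119690400 for Hmgcs1 and chr3:129532136-129532435 for Elovl6. Capitals mark matches on either strand to the sterol regulatory element TCACNCCAC, the NF-Y box CCAAT and the Sp1 box GGGCGG, and a match on the other strand shows as its reverse complement.
Mvk: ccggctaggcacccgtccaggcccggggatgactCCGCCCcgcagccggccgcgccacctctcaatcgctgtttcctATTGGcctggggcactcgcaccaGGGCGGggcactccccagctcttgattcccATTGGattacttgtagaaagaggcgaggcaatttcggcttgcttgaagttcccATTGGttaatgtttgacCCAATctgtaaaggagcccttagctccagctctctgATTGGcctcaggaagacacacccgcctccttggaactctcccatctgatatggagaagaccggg
Idi1: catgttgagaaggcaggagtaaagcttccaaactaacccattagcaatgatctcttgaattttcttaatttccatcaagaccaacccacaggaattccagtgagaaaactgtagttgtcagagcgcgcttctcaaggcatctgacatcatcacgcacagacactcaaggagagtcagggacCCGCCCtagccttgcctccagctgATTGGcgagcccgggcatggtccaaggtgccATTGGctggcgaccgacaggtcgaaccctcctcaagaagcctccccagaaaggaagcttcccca
Hmgcs1: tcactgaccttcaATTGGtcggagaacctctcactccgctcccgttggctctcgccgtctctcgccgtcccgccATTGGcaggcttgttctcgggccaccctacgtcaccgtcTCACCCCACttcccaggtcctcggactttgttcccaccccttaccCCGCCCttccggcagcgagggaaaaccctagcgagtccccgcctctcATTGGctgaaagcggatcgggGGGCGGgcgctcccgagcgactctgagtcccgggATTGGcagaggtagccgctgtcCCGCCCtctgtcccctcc
Elovl6: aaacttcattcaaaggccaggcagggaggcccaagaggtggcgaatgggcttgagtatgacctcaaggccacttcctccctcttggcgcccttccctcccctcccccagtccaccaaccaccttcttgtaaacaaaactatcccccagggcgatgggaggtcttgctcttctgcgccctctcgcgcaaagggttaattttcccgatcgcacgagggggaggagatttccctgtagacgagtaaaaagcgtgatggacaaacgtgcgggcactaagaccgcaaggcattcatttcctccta

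The Hmgcs1 window holds 1 match to TCACNCCAC, 4 to CCAAT and 3 to GGGCGG, the Mvk window 5 to CCAAT and 2 to GGGCGG, and the Idi1 window 2 and 1. The Elovl6 window holds none of these letters. Of the 37 genes, 29 had at least 1 promoter in the table, 38 promoters in all. TCACNCCAC occurred in 1 of the 38 (2.63%), against 1.24% of all 32851 promoters. CCAAT occurred in 23 (60.5%, against 37.4%), GGGCGG in 27 (71.1%, against 35.7%) and the E-box CACGTG in 7 (18.4%, against 7.15%). In the 4 windows printed, the strings in capitals do not overlap. A match is a run of letters, not a shown binding site, and no binding was measured.

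**Figure D3:**
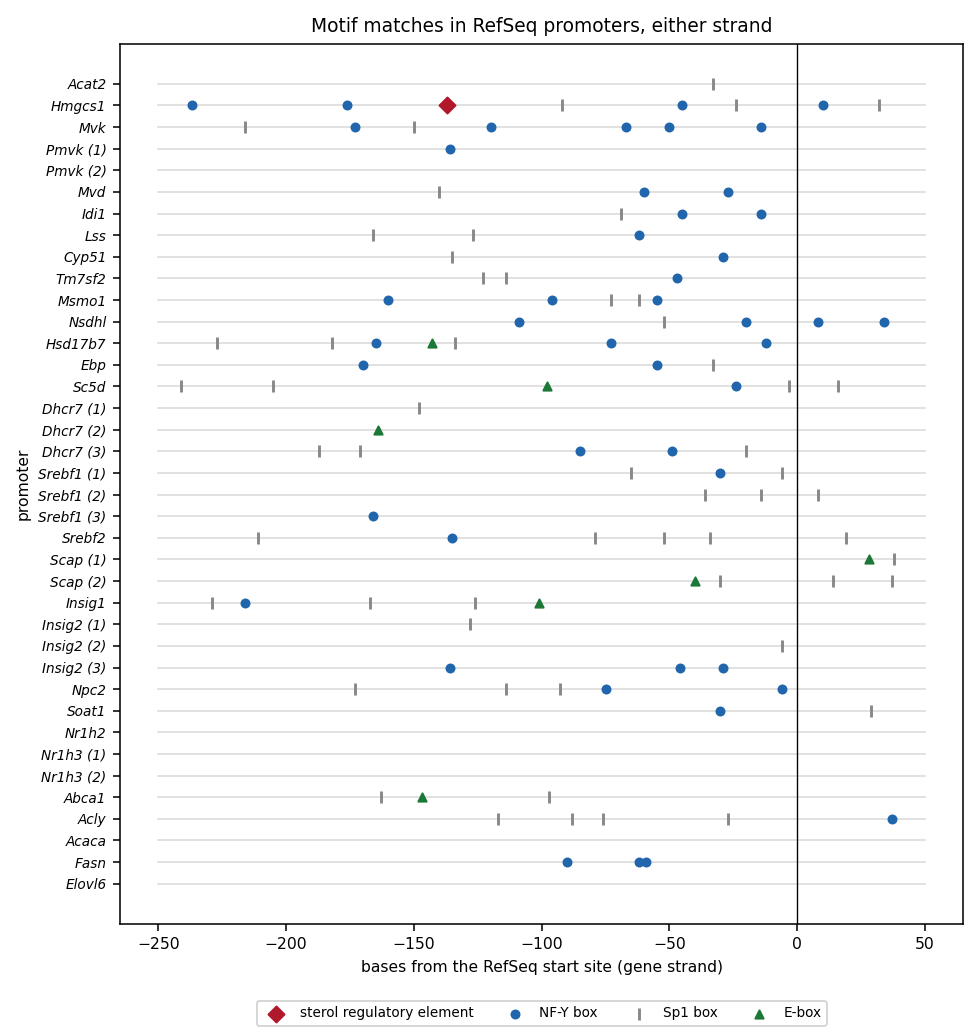
Positions of matches on either strand to the 4 motifs in the 38 RefSeq promoters of 29 genes, as bases from the start site on the gene's strand; numbers in brackets separate promoters of 1 gene. Matches to the NF-Y box stand in 23 of the 38 promoters and the sterol regulatory element in that of Hmgcs1.

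Enzymes from squalene to cholesterol numbered 11. Sqle, squalene epoxidase, a rate-limiting step, had 4.06, 4.37 and 4.58 TPM in right and 5.03, 5.21 and 5.82 TPM in left coarctation kidneys of mice 1, 2 and 3. It had 6.75 and 6.17 TPM in right and 9.60 and 11.7 TPM in left sham kidneys. The 4 groups did not overlap: right coarctation kidneys were lowest, then left coarctation, right sham and left sham kidneys. The log2 changes were -0.47 (SE 0.35) for coarctation right minus left and -0.77 (SE 0.43) for sham right minus left. Coarctation minus sham was -0.43 in right and -0.73 (SE 0.39, unadjusted p = 0.082) in left kidneys. All adjusted p were 0.91 or above in the main fit, and each change kept its sign under every alternative run. These comparisons share libraries, so they are not separate pieces of evidence.

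Lss, which closes squalene epoxide to lanosterol, had 1.04, 1.77 and 0.835 TPM in right and 0.479, 0.622 and 1.32 TPM in left coarctation kidneys. In sham mice it had 3.43 and 0.745 TPM in right and 3.60 and 1.92 TPM in left kidneys. In left kidneys the coarctation libraries were all below the sham libraries, with a log2 change of -1.48 (SE 0.69, unadjusted p = 0.0527, adjusted p = 0.912). The average transcript length recorded for Lss ran from 1377 to 6311 bases over the libraries. With reads rebuilt from those lengths the change in left kidneys was -1.67 (SE 0.60, unadjusted p = 0.0155, adjusted p = 0.947), and that for coarctation right minus left was 1.04, against 0.39 in the main fit.

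Fdft1, squalene synthase, had 5.88 to 12.0 TPM in right and 9.57 to 13.7 TPM in left coarctation kidneys. Msmo1, the sterol C4 methyl oxidase, had 9.86 to 18.8 TPM in right and 17.9 to 22.3 TPM in left coarctation kidneys, and spanned 5.02 to 32.8 TPM between the right sham kidneys. Dhcr7, which makes cholesterol in the last step, had 0.765 to 1.25 TPM in right and 0.961 to 2.06 TPM in left coarctation kidneys, against 2.56 and 2.63 TPM in left sham kidneys. The log2 changes for coarctation right minus left were -0.62 for Fdft1, -0.67 for Msmo1 and -0.61 for Dhcr7, each with an SE of at least 0.46. The 2 of these 11 genes with positive changes were Lss at 0.39 and Sc5d, the sterol C5 desaturase, at 0.18. Within sham mice 1 and 2 the right kidney differed from the left by -0.47 and -0.71 in log2 CPM for Fdft1. These differences were -1.63 and 0.42 for Msmo1 and 0.25 and -1.42 for Dhcr7. Estimated counts of Dhcr7 were 130 and 53.1 in right and 112 and 143 in left sham kidneys. By TPM, Ebp, the sterol isomerase, Sc5d and Cyp51, the lanosterol demethylase, were higher in both right sham kidneys than in both left ones. Nsdhl and Tm7sf2 were lower. The fitted log2 changes were 0.53, 0.74 and 0.21 for the first 3, and -0.46 and -0.74 for Nsdhl and Tm7sf2. On log2 CPM, Cyp51 was slightly lower on the right in sham mouse 1 (-0.03) and higher in sham mouse 2 (0.39). Of these 11 genes, Tm7sf2 and Hsd17b7 varied most between kidneys of a mouse, with gaps of up to 3.02 and 1.97 in log2 CPM.

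**Figure D4:**
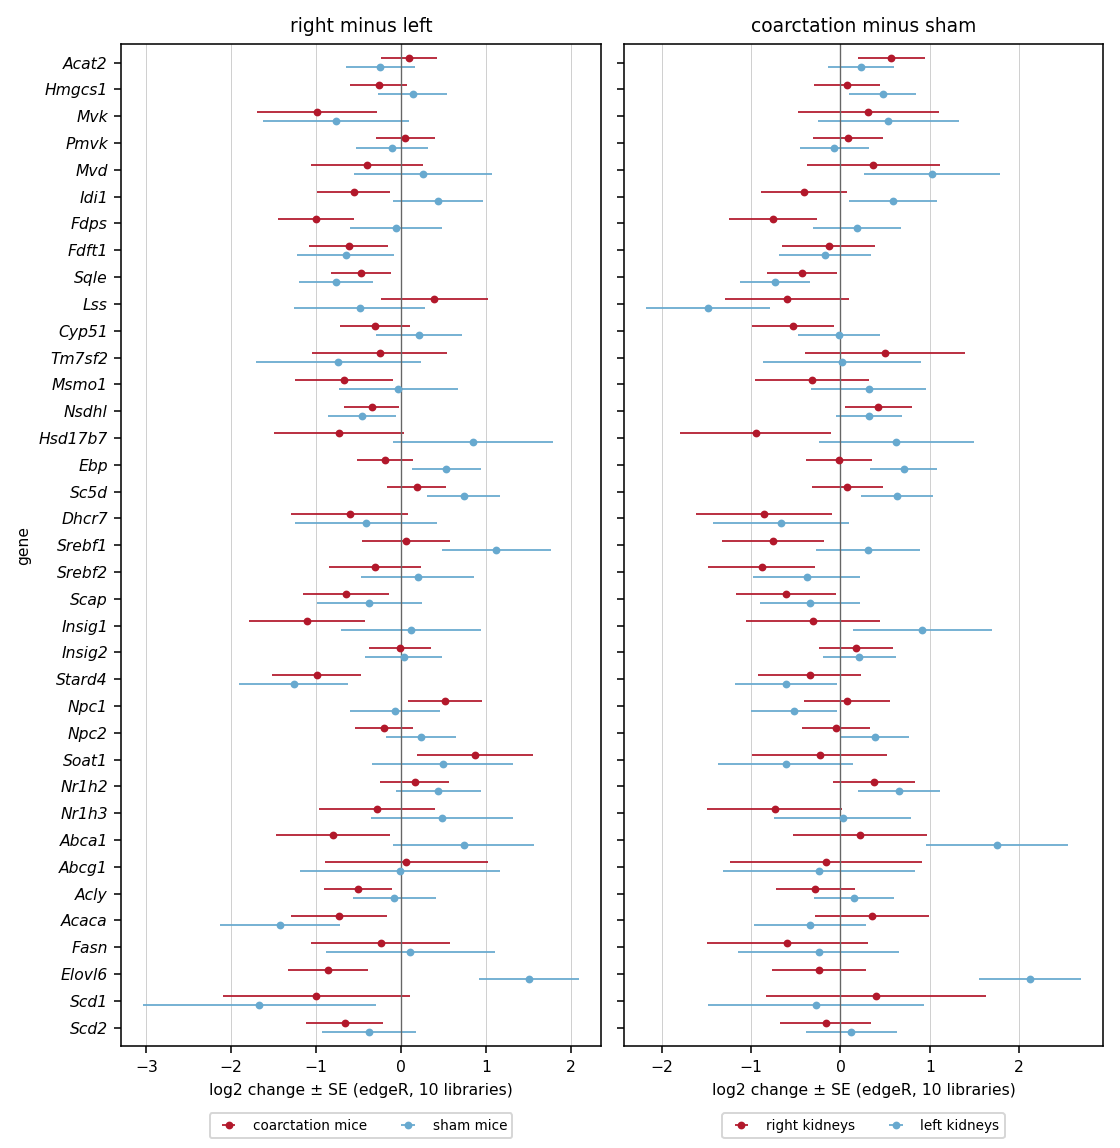
Log2 change ± SE from the edgeR fit of all 10 libraries for the 37 genes, right minus left kidneys on the left panel (coarctation mice above sham mice in each row) and coarctation minus sham on the right panel (right kidneys above left kidneys). For coarctation right minus left 28 points lie below 0, and in sham mice Scd1 and Elovl6 lie farthest from 0, at -1.67 and 1.50. In left kidneys Elovl6 lies farthest, at 2.13.

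The SREBP regulators were at low levels apart from Insig2. Insig1, itself a SREBP target whose protein holds SCAP in the endoplasmic reticulum, had 0.520, 2.22 and 1.09 TPM in right and 2.44, 2.75 and 1.86 TPM in left coarctation kidneys. It had 2.04 and 1.32 TPM in right and 0.690 and 2.20 TPM in left sham kidneys. The right kidney was lower in each of the 3 coarctation mice, with 1 overlap between the groups (the right kidney of mouse 2 above the left of mouse 3). The log2 change was -1.11 (SE 0.68, unadjusted p = 0.129), the lowest value among the 37 genes in that comparison. With reads rebuilt from transcript lengths it was -0.84, and Hsd17b7 was the lowest at -0.93. On those reads Insig1 was not lower on the right in all 3 coarctation mice. Mouse 2 had 213 reads in the right and 152 reads in the left kidney. Insig2 had 24.4 to 51.2 TPM in right and 25.3 to 50.5 TPM in left coarctation kidneys, with a log2 change of -0.01 (SE 0.37). Annotated transcripts of these 2 genes share no stretch of 50 bases.

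Srebf1, which encodes the SREBP best known for fatty acid genes, had 1.32, 3.21 and 2.20 TPM in right and 1.84, 2.46 and 1.37 TPM in left coarctation kidneys. It had 4.29 and 3.82 TPM in right and 2.54 and 1.14 TPM in left sham kidneys. Both right sham kidneys were above all other libraries. The log2 change was 1.12 (SE 0.64, unadjusted p = 0.104) for sham right minus left, 0.06 for coarctation right minus left, and -0.76 (SE 0.57) for coarctation minus sham in right kidneys. Srebf2, whose product mainly drives the cholesterol genes, had 0.899, 4.10 and 2.30 TPM in right and 1.21, 3.22 and 3.39 TPM in left coarctation kidneys, against 3.29 and 5.83 TPM in right and 3.89 and 4.04 TPM in left sham kidneys. Coarctation minus sham was -0.88 in right kidneys (SE 0.60, unadjusted p = 0.165) and -0.38 (SE 0.60) in left kidneys, where the groups did not overlap. Both kidneys of coarctation mouse 1 were the lowest of the 10 libraries for Srebf2. Scap had 1.25 to 3.02 TPM in right and 1.87 to 4.47 TPM in left coarctation kidneys, against 2.38 and 4.99 TPM in right and 4.10 and 4.91 TPM in left sham kidneys.

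Of the 4 genes of sterol transport and storage, Stard4, a soluble sterol carrier, was among the 3 with the smallest p in both comparisons of right with left kidneys. It had 3.01, 1.06 and 2.23 TPM in right and 2.28, 6.69 and 3.23 TPM in left coarctation kidneys, and 3.58 and 2.60 TPM in right and 5.31 and 8.84 TPM in left sham kidneys. The log2 changes were -0.99 (SE 0.52, unadjusted p = 0.0799) for coarctation and -1.27 (SE 0.64, unadjusted p = 0.071) for sham right minus left. They were -0.69 and -0.29 with reads rebuilt from transcript lengths, which ran from 1897 to 5190 bases for Stard4. Npc1, the lysosomal membrane protein that exports sterol, had 1.32 to 3.04 TPM in right and 1.39 to 1.58 TPM in left coarctation kidneys, against 1.93 and 3.08 TPM in right and 1.85 and 3.24 TPM in left sham kidneys. Its partner Npc2 had 36.7 to 60.2 TPM in right and 45.7 to 48.6 TPM in left coarctation kidneys. Soat1, which esterifies cholesterol for storage, had 11.8, 5.76 and 2.61 TPM in right and 1.98, 6.40 and 2.46 TPM in left coarctation kidneys, and 15.5 and 3.62 TPM in right and 9.33 and 3.57 TPM in left sham kidneys. Its highest libraries had the shortest recorded transcripts, 781 bases in the right kidney of coarctation mouse 1 and 951 bases in that of sham mouse 1, out of 781 to 3980 bases.

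LXR and efflux genes did not share a direction. Nr1h2, the LXR expressed in most tissues, had 10.6, 27.6 and 31.4 TPM in right and 16.4, 22.2 and 16.0 TPM in left coarctation kidneys. Nr1h3, the LXR known from liver, fat and macrophages, had 4.33, 7.97 and 3.32 TPM in right and 6.74, 2.35 and 6.96 TPM in left coarctation kidneys, against 7.74 and 10.7 TPM in right and 2.03 and 10.6 TPM in left sham kidneys. The kidneys of single mice differed in both directions, and the log2 change was -0.28 (SE 0.68) for coarctation right minus left. Abca1, the LXR target that loads cholesterol onto lipoprotein, had 0.690, 0.742 and 0.338 TPM in right and 1.15, 0.551 and 1.00 TPM in left coarctation kidneys. It had 0.949 and 0.227 TPM in right and 0.526 and 0.149 TPM in left sham kidneys. All 3 left coarctation kidneys were above both left sham kidneys, the nearest being 0.551 TPM in a coarctation and 0.526 TPM in a sham kidney. Coarctation minus sham in left kidneys was 1.75 (SE 0.80, unadjusted p = 0.047, adjusted p = 0.912). It was 2.835 without the left kidney of sham mouse 1 and 0.51 on the log2(TPM + 1) scale, and it stayed positive under 23 of 23 alternatives. Abcg1 was recorded at 0.107 to 0.855 TPM and 3 to 59 rebuilt reads, and its change turned sign under some alternatives in each of the 5 comparisons.

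Macrophages use this efflux route, and their markers varied between libraries. The 12 macrophage markers summed to 380 to 1086 TPM in right and 78.2 to 651 TPM in left coarctation kidneys, and to 152 to 419 TPM in right and 178 to 497 TPM in left sham kidneys, with 7 to 11 of the 12 at 1 TPM or more. Of the 12, Cd74, H2-Aa and H2-Ab1, genes of antigen presentation, were higher on the right in all 3 coarctation mice, by 2.90, 1.45 and 1.12, by 4.05, 3.13 and 0.33, and by 3.28, 2.03 and 0.88 in log2 CPM. All the other listed macrophage markers were lower on the right in coarctation mouse 2, from -0.03 for Adgre1 to -6.3 for C1qc. In mouse 3 these were all higher, and in mouse 1 all but C1qa (-0.27). The sum in mouse 2 was 451.5 TPM in the right and 650.8 TPM in the left kidney. The part of macrophages in the values of Abca1, Nr1h3 and Soat1 was not tested. Adipocyte markers, 6 genes, summed to 2.54 to 5.13 TPM in right and 0.967 to 13.9 TPM in left coarctation kidneys, and to 8.62 to 16.4 TPM in right and 2.85 to 11.6 TPM in left sham kidneys. Fabp4 alone reached 15.6 TPM, and Adipoq, which defines the type, was at 0 to 0.337 TPM. The 5 markers of the adrenal cortex, a sterol-rich gland beside the kidney, summed to at most 2.32 TPM in any library. Proximal tubule markers, 9 genes, summed to 2030 to 4573 TPM in right and 1491 to 10220 TPM in left coarctation kidneys, and to 1122 to 3772 TPM in right and 847 to 5312 TPM in left sham kidneys. The part of tubule RNA in the lipid genes was not tested.

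On the deposited counts a gene of fatty acid synthesis, Elovl6, had the largest change in left kidneys and in the difference between the changes. Elovl6, which lengthens palmitate to stearate, had 1.55, 2.60 and 2.83 TPM in right and 4.09, 4.42 and 2.70 TPM in left coarctation kidneys of mice 1, 2 and 3. It had 2.13 and 3.68 TPM in right and 1.07 and 0.968 TPM in left sham kidneys. Left coarctation kidneys were all above left sham kidneys, and in both sham mice the right kidney was above the left. Coarctation minus sham in left kidneys was 2.13 (SE 0.57, unadjusted p = 0.00261, adjusted p = 0.912 by edgeR), a fold change of 4.37. DESeq2 gave 2.12 and an adjusted p of 0.0104, and over all alternatives of that comparison the adjusted p was 0.0104 to 1.0. Sham right minus left was 1.50 (SE 0.59, unadjusted p = 0.0243), coarctation right minus left -0.86 (SE 0.47, unadjusted p = 0.0911), and the difference between these changes -2.37 (SE 0.75, unadjusted p = 0.00801, adjusted p = 1.00).

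The size of the Elovl6 change depended on how transcript length entered the counts. The deposited estimated counts are TPM scaled by a gene's average length over libraries, and the recorded length of Elovl6 differed between libraries, from 1508 bases in the right kidney of sham mouse 1 to 6290 bases in the left kidney of sham mouse 2. The other libraries lay between 2066 and 3879 bases. Rebuilt from each library's own length, Elovl6 had 236, 305 and 220 reads in right and 287, 438 and 315 reads in left coarctation kidneys. It had 91 and 375 reads in right and 92 and 228 reads in left sham kidneys. On those reads the change in left kidneys was 1.22 (SE 0.62, unadjusted p = 0.0697, adjusted p = 0.947), and the difference between the right minus left changes -1.07 (SE 0.84, unadjusted p = 0.225). Elovl6 was then no longer the gene with the largest change. In left kidneys Abca1 (1.88) and Lss (-1.67) had larger values, and for the difference Abca1 (-1.62), Lss (1.40), Srebf1 (-1.18) and Npc1 (1.07). Rebuilt reads keep the effect of length, which TPM takes out, and why the recorded lengths differ was not tested. Elovl6 lies at chr3:129532355-129638495 on the plus strand, with 5 annotated transcripts in GENCODE vM21.

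**Figure D5:**
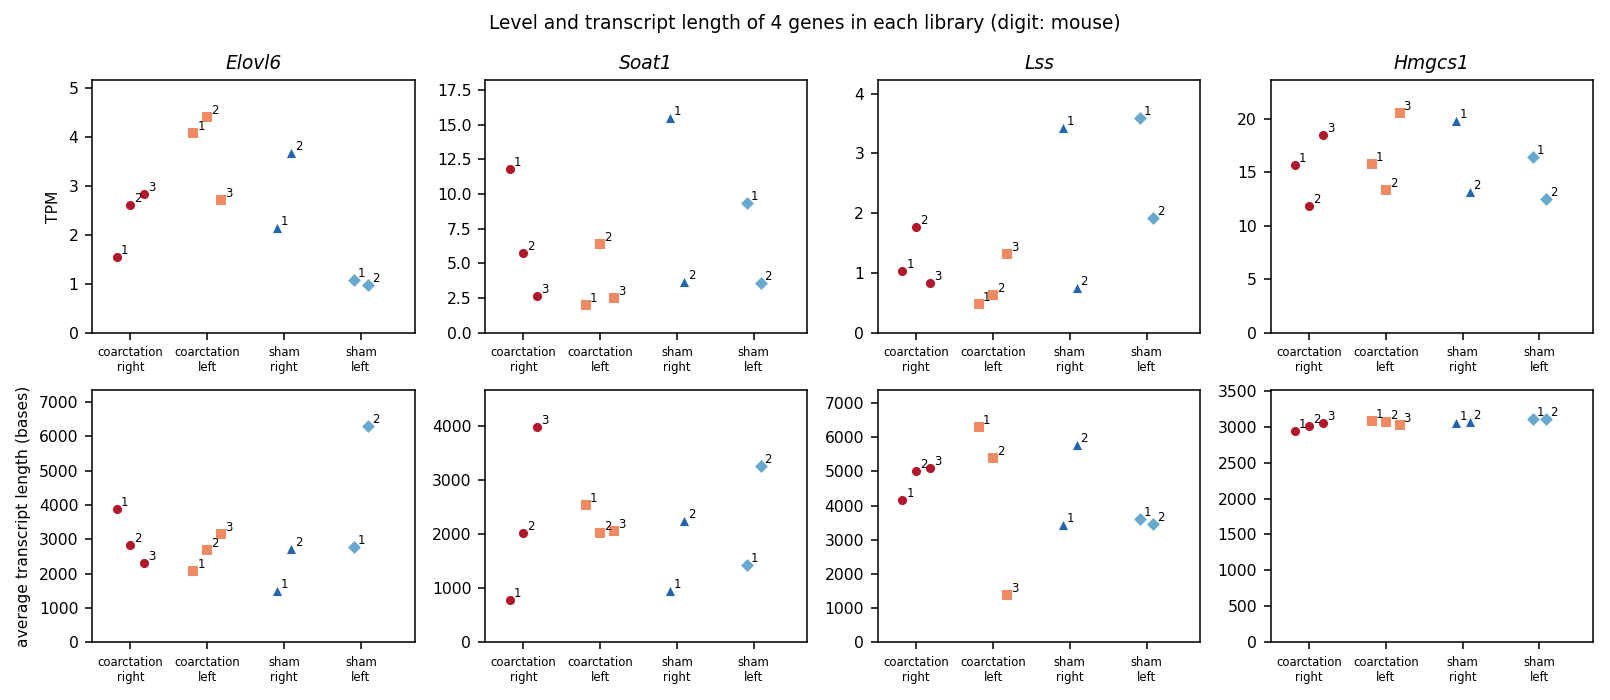
TPM (upper row) and average transcript length in bases (lower row) of Elovl6, Soat1, Lss and Hmgcs1 in each library, coarctation kidneys left of sham kidneys, with the mouse number beside each point. The length of Hmgcs1 stayed within 2932 to 3108 bases, whereas that of Elovl6 spanned 1508 to 6290, that of Soat1 781 to 3980 and that of Lss 1377 to 6311 bases.

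Scd1 and Scd2 make monounsaturated fatty acids. Scd1 had 1.88, 0.517 and 0.0584 TPM in right and 3.61, 0.487 and 0.376 TPM in left coarctation kidneys, against 0.948 and 0.561 TPM in right and 3.48 and 1.22 TPM in left sham kidneys. It was the most variable of the 37 genes, with mouse means that spanned 4.17 in log2 CPM, and mouse 1 of either operation was the highest in its group. The log2 changes, -1.0 (SE 1.1) for coarctation and -1.67 (SE 1.37) for sham right minus left, were smaller than that range. Scd2 had 3.58, 4.51 and 4.05 TPM in right and 7.15, 4.11 and 5.51 TPM in left coarctation kidneys, against 4.29 and 5.54 TPM in right and 2.86 and 9.41 TPM in left sham kidneys. Its change for coarctation right minus left was -0.66 (SE 0.46). These 2 genes share 145 windows of 50 bases, 2.97% of those of Scd1 and 2.66% of those of Scd2, and reads from there could be assigned to either.

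Fasn, fatty acid synthase, had 0.422, 4.26 and 0.727 TPM in right and 2.75, 1.57 and 0.838 TPM in left coarctation kidneys, against 1.08 and 4.18 TPM in right and 2.02 and 2.92 TPM in left sham kidneys. It was lower on the right in coarctation mice 1 and 3 and higher in mouse 2. Acly, which makes cytosolic acetyl-CoA, had 2.51 to 9.30 TPM in right and 5.27 to 9.15 TPM in left coarctation kidneys, with a log2 change of -0.51 (SE 0.40). Acaca, which makes malonyl-CoA, had 1.28, 2.84 and 1.63 TPM in right and 1.16, 5.96 and 1.72 TPM in left coarctation kidneys. In sham mice it had 2.21 and 1.09 TPM in right and 4.71 and 3.72 TPM in left kidneys, without overlap. The sham change was -1.43 (SE 0.70, unadjusted p = 0.0636), and 0.07 with reads rebuilt from the recorded lengths, which ran from 1928 to 6379 bases for Acaca.

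Sham right minus left had 19 negative and 18 positive changes among the 37 genes (51.4% negative, against 48.4% of all genes), with a median of -0.02, against 0.02 for all genes. At an unadjusted p under 0.05, 1 gene was higher (Elovl6), against 1.94% of all genes in either direction. TPM did not overlap for 6 genes higher on the right (10.9% of all genes were so) and 7 lower (9.77%). The corresponding counts in coarctation mice were 0 higher (8.19% of all genes) and 2 lower (2.97%), Fdps and Sqle. Without sham mouse 1 the sham median was -0.08, and without sham mouse 2 it was 0.10. The difference between the right minus left changes was negative for 24 and positive for 13 genes, 64.9% negative against 49.2% of all genes, with a median of -0.29. At an unadjusted p under 0.05, 1 gene passed (Elovl6), against 3.05% of all genes. The median was -0.19 without sham mouse 1, and 0.07 without the right kidney of sham mouse 2, which turned its sign.

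In left kidneys, coarctation minus sham was negative for 15 and positive for 22 genes, 40.5% negative against 51.2% of all genes, with a median of 0.15, against -0.02. Elovl6 and Abca1 passed an unadjusted p of 0.05, both higher, against 4.75% of all genes in either direction. TPM did not overlap for 5 higher genes (4.87% of all genes), Mvd, Ebp, Nr1h2, Abca1 and Elovl6, and 5 lower ones (17.2%), Sqle, Lss, Dhcr7, Srebf2 and Npc1. The median was -0.03 without sham mouse 1, which turned its sign, and 0.38 without sham mouse 2. In right kidneys 23 changes were negative and 14 positive, 62.2% negative against 52.7%, with a median of -0.17, against -0.05. None passed an unadjusted p of 0.05, against 3.82% of all genes. The smallest p were those of Fdps, with a log2 change of -0.75 (SE 0.49), Acat2 and Srebf2. TPM did not overlap for 1 higher gene (5.41% of all genes), Acat2, and 4 lower ones (11%), Idi1, Sqle, Cyp51 and Srebf1. The median was -0.13 without sham mouse 1 and 0.05 without sham mouse 2, which turned its sign.

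Another 31 genes of the pathway, listed by function, were tested and 0 were called by edgeR in any comparison. For coarctation right minus left 18 were lower and 13 higher, with a median of -0.11. By list, 7 of the 11 other SREBP targets were lower (median -0.18) and 8 of the 10 genes of uptake, transport and oxysterols (median -0.52). Of the 6 genes of SREBP processing and INSIG turnover 2 were lower and 4 higher (median 0.31), and of the 4 LXR partners and targets 1 was lower and 3 higher (median 0.35). For the other comparisons the counts of lower and higher genes were 17 and 14 for sham right minus left, 17 and 14 for the difference, 13 and 18 for coarctation minus sham on the left side, and 17 and 14 on the right side. The smallest p for coarctation right minus left were those of Vldlr, a lipoprotein receptor, at -0.86 (SE 0.40), and Lpcat3, an LXR target that remodels phospholipid, at -0.90 (SE 0.43). For sham right minus left they were Acss2, the cytosolic acetyl-CoA synthetase, at -1.10 (SE 0.50), and Rnf139, a sterol-sensing ubiquitin ligase, at -1.12 (SE 0.52). For the difference they were Mbtps1, the first protease that cuts SREBP, at 1.44 (SE 0.62), and Rnf139 at 1.45 (SE 0.67). In left kidneys they were Gramd1b, which moves cholesterol from the plasma membrane, at 2.47 (SE 1.10), and Vldlr at 0.95 (SE 0.46). In right kidneys they were Erlin2, a sterol-regulated membrane scaffold, at 1.44 (SE 0.53), and Lpcat3 at -1.21 (SE 0.47).

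The genes whose log2 CPM followed those of 3 members most closely over the 10 libraries were found among 6172 genes of at least moderate level, as a description. For Hmgcs1 they were Uhrf1bp1l (Pearson's r 0.965), Ppm1k (0.913) and Calm3 (0.908). For Insig1 they were AI413582 (0.916), Mertk (0.885) and Actn4 (0.885). For Abca1 they were Zfp706 (0.963), Cyp4a10 (0.951) and Cox16 (0.925). None of these 9 is among the 37 genes, which the search left out. The 10 libraries are pairs of kidneys from the same mice, so they are not independent, and they differ in depth.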

How the data were processed

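RNA of sorted renin cells was measured in 10 libraries, grouped by the sample labels. The deposited table gives 3 values per gene and library. Per the file headers, one is the authors' TPM (abundance). Another is an estimated count, which a column of the deposited table says is derived from length-scaled TPM. The last, also per the file headers, is the length of the transcripts in bases, averaged within a gene. The submitters' processing notes name FastQC and the build GRCm38 (mm10). Which aligner, quantifier and annotation they used is not given in the sources used here. Estimated counts summed to between 20029817 and 32006229 in a library, without molecular identifiers.

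Estimated counts were rounded and fitted in R 4.3.3 with edgeR 4.0.16 (filterByExpr, TMM, quasi-likelihood test, 1 coefficient for each of the 4 groups, all 10 libraries, no block, 6 residual degrees of freedom, common dispersion 0.45). p-values were adjusted over all 18825 genes tested, with a threshold of 0.05. SEs are of the log2 change. Log2 CPM used a prior count of 2. The script was tested on simulated data. Alternatives were DESeq2 1.42.0 (its size factors alone, and its test), limma-voom (limma 3.58.1), log2(TPM + 1), no filter, only the compared groups, mouse as a fixed or random block, and each library or mouse left out. Reads rebuilt as TPM times each library's transcript length, and other scales for the counts within mice, were added after the data were seen. The kidneys of a mouse come from the same animal, so the mouse number pairs them. Deviations of the kidneys of a mouse from their group means correlated at 0.127, 0.0496 and 0.0307 in coarctation mice and 0.398 in sham mice. With 2 sham mice the deviations of 1 mirror those of the other, so both give the same value by construction. It therefore cannot be set against the coarctation values.

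The members and lists were chosen with earlier results of these data known. By rule, TPM in every library is given for the 3 members of smallest p in each comparison and for Hmgcs1, Sqle, Insig1, Srebf1, Srebf2, Abca1, Nr1h3, Scd1, Scd2 and Fasn, and the 2 of smallest p per comparison for other pathway genes whose mean log2 CPM reached 2. Other values per library were chosen after they were seen. Positions come from GENCODE vM21 on GRCm38 and promoters from RefSeq on GRCm38.p6. The planned comparison of protein sequences was replaced by shared 50-base stretches of GENCODE transcripts.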

Additional observations from a re-analysis of the deposited data

Results flagged for a closer look

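For 3 of the 37 genes (8.11%, against 6.45% of all genes tested), every coarctation mouse moved one way between right and left kidneys and both sham mice moved the other way. For Hmgcs1 the right kidney was lower in all 3 coarctation mice and higher in both sham mice, and the difference between the changes was -0.4022 on the log2 scale. With reads rebuilt from transcript lengths, Hmgcs1 was not lower on the right in all 3 coarctation mice. For Pmvk the right kidney was higher in all 3 coarctation mice and lower in both sham mice, with a difference of 0.154. Elovl6 was lower on the right in all 3 coarctation mice and higher in both sham mice on the log2 CPM scale, with a difference of -2.367. On the TPM scale the right and left kidneys of coarctation mouse 3 had 2.83 and 2.70 TPM of Elovl6, the other way round. None of the 3 differences passed edgeR's test (adjusted p = 1.00 each).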

How the results depend on the processing

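Over 23 or 24 alternatives per comparison, edgeR, limma-voom and DESeq2 called 0 of the 37 genes, except DESeq2 in left kidneys, which called 1 (Elovl6) of the 37 and 39 of all genes (0.207%). DESeq2 called 28 to 76 of all genes in the other comparisons, and edgeR without the filter 19 to 112. The sign held under all alternatives run for 20 of the 37 genes in coarctation right minus left, 12 in sham right minus left, 14 in the difference, 17 in left and 10 in right kidneys. The median change of the 37 genes kept its sign under 24 of 24 alternatives for coarctation right minus left, 19 of 24 for sham right minus left, 22 of 23 for their difference, 20 of 23 in left and 21 of 23 in right kidneys. With single libraries left out, it spanned -0.2114 to 0.2978 for sham right minus left and -0.5632 to 0.07424 for the difference. In left kidneys it spanned -0.02702 to 0.3771, and was 0.3771 without the left kidney of sham mouse 2 and 0.3758 without both kidneys of that mouse. The cause was not tested.

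With mouse as a replicate block, the medians were -0.4023 for coarctation right minus left, -0.1117 for sham right minus left and -0.3646 for the difference. The block changed no call among the 37 genes. Members lower in all coarctation mice numbered 7 on log2(TPM + 1) and 7 with rebuilt reads, scales on which the median of all genes was 0.0332 to 0.0761 and 0.0635 to 0.181 above 0 in the 3 mice, against 12 in the main count. Counting error weighs most on the genes of lowest level, such as Abcg1 with 3 to 59 rebuilt reads, and groups of 3 and 2 mice limit every test.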
